A study of Mus musculus with 94 samples.

Results

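Epididymal fat of male mice 6 weeks after a return to low-fat food was compared with that of mice 2 weeks after it, by bulk RNA sequencing of polyadenylated RNA. The comparison holds 12 of the 47 epididymal libraries and of the 94 libraries of the series, 6 mice at each time. All were C57BL/6JBomTac males that ate the high-fat diet D12492 for 18 weeks from 10 weeks of age and were then moved to the low-fat diet D12450J, for 2 weeks (short-term regression, 30 weeks old) or for 6 weeks (medium-term regression, 34 weeks old). Lean mice of each age, 6 and 6, had eaten D12450J throughout, and 5 obese mice were sampled after the high-fat diet with no return. The question is what changed in the fat pad between the first weeks of weight loss and the later weeks on the same food. The mice were housed 3 to an enclosure, and the labels do not say which mice shared one.

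Adipocytes make fatty acids from glucose: pyruvate is turned into mitochondrial citrate, citrate is exported and split into acetyl-CoA, and acetyl-CoA is built into fatty acids that are elongated, desaturated and stored as triglyceride. This path is switched on by insulin and carbohydrate through SREBP-1c and ChREBP and is low on a high-fat diet. Secreted proteins, adiponectin and collagens among them, are folded in the endoplasmic reticulum by chaperones such as BiP, whose genes are induced through a shared promoter element when folding demand is high. The obese epididymal pad of the mouse is also known for crown-like macrophages and for collagen deposition between adipocytes.

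Deposited totals were 7.10 to 16.2 M counts per library at 6 weeks (mean 11.3 ± 3.83, SD, n = 6) and 1.32 to 12.2 M at 2 weeks (mean 6.67 ± 3.49, SD, n = 6), a difference of 4.59 M with an exact two-sided permutation p of 0.0563, where the smallest p the design allows is 0.00216. The 2-week replicate 2 held 1.32 M counts, the lowest. Summed library-scaled counts (CPM) of 93 ribosomal protein genes were 5981 to 7637 at 6 weeks and 6724 to 9427 at 2 weeks. Genes of epididymal duct and vas deferens summed to 8.06 to 54.0 CPM in the 12 libraries. In the lean libraries used below they summed to 8.86 to 5803 CPM at the 6-week age and 14.5 to 2628 CPM at the 2-week age. Replicates 1 to 3 of all groups come from a higher-numbered series of mice than replicates 4 to 6, so each group is made of 2 series of mouse numbers. Replicate 6 of the 6-week group stood apart from the other 5 in several of the results, and some of these are also given without it.

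Of 14323 genes tested, 686 (4.79%) differed between 6 and 2 weeks at an adjusted p under 0.05, 400 of them higher at 6 weeks (2.79%) and 286 lower (2%). The higher genes had a median log2 fold change of 0.66 and 112 of them changed at least 2-fold, while the lower genes had a median of -0.51 and 29 of them changed at least 2-fold. The median over all genes tested was -0.03. The 6 mice of one time lay wholly above those of the other for 60 of the 400 and wholly below for 59 of the 286, against 96 (0.67%) and 109 (0.761%) of all genes tested. Within replicates 1 to 3 and within replicates 4 to 6, taken apart, all 400 higher genes had a positive difference, with medians of 0.62 and 0.71. The 284 lower genes that could be fitted had a negative one, with medians of -0.52 and -0.47. These genes were chosen by a test on the same libraries, which favours equal signs in both parts, so the agreement is not separate support. Fitted apart, replicates 1 to 3 gave 91 calls and replicates 4 to 6 gave 0. With size-factor scaling in place of TMM the split of calls moved from 400 higher and 286 lower to 504 and 224.

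The share of genes called, 4.79% in all libraries, depended on single libraries and on how the spread was estimated. Without the 6-week replicate 6 it was 10.3% and without the 2-week replicate 1 it was 8.55%, while without the 6-week replicates 1, 2, 3 and 4, 1 at a time, it was 2.42%, 2.72%, 2.15% and 1.73%, and without the 2-week replicates 4 and 5 it was 2.68% and 2.02%. A fit of the 12 libraries alone, without the spread of the other groups, called 0.824% (108 genes). Of the 73 called genes named below with their values, all kept their direction in each alternative fit, and 44 lost the call in the 12-library fit. Col14a1, Col1a2, Eln and Adm, named without values, are not among the 73, and how their calls held is not given. Below, pairs of levels are given for 6 and then 2 weeks. A level is the median of the 6 mice with the lowest and highest mouse in parentheses, in CPM scaled by TMM, and a difference is a log2 fold change ± SE (n = 6 and 6) with its Benjamini-Hochberg adjusted p over all genes tested in edgeR.

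Most genes of fatty acid synthesis rose. Of 18 genes of de novo lipogenesis tested, 14 were higher at 6 weeks and 0 lower, with a list median of 1.49 on the log2 scale against -0.03 over all genes. Elovl6, which elongates palmitate (chromosome 3, 129532355 to 129638495), had the largest rise among called genes of at least 5 CPM. Its level was 709 (72.1 to 1249) CPM at 6 weeks and 47.8 (22.3 to 77.5) CPM at 2 weeks, a log2 fold change of 3.77 ± 0.55 with an adjusted p of 0.000257. The groups overlapped only through the 6-week replicate 6, at 72.1 CPM. The other 5 mice of that group held 484 CPM or more, above all 2-week mice.

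Acss2, which makes cytosolic acetyl-CoA from acetate (chromosome 2, 155517948 to 155585724), stood at 493 (47.1 to 699) CPM at 6 weeks and 35.7 (22.6 to 77.4) at 2 weeks (log2 fold change 3.28 ± 0.49, adjusted p = 0.000257). Acly, which splits exported citrate into acetyl-CoA (chromosome 11, 100476353 to 100528000), stood at 1568 (159 to 2342) and 161 (124 to 308) CPM (log2 fold change 2.95 ± 0.48, adjusted p = 0.000616). In each case the lowest 6-week mouse was replicate 6, which lay among the 2-week mice while its 5 companions lay above them. Fasn, the fatty acid synthase (chromosome 11, 120805846 to 120824547), went from 1515 (518 to 5177) CPM at 2 weeks to 16575 (3009.9 to 22045) CPM at 6 weeks (log2 fold change 2.67 ± 0.50, adjusted p = 0.00185). Lean mice of the 6-week age had a median of 20447 CPM. Fasn lost its call in the fit of the 12 libraries alone, at an adjusted p of 0.0583, while Elovl6, Acss2, Acly, Scd2, Me1 and Acaca kept theirs.

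Acaca, which makes malonyl-CoA, had 1608 (455.1 to 2029) CPM at 6 weeks and 199.9 (115 to 626) at 2 weeks (log2 fold change 2.29 ± 0.43, adjusted p = 0.00192). Me1, a source of NADPH, had 1183 (186 to 1660.2) and 198 (106 to 326) CPM (log2 fold change 2.44 ± 0.40, adjusted p = 0.000616). Thrsp, a lipogenic cofactor chosen for naming after its values were seen, rose too (log2 fold change 2.03 ± 0.42, adjusted p = 0.00454). Both desaturases rose. Scd2 had 1756 (250.4 to 2628) CPM at 6 weeks and 288 (202 to 357) at 2 weeks (log2 fold change 2.63 ± 0.40, adjusted p = 0.000323), while Scd1, the most abundant of the list, had 115160.0 (43635 to 139175) and 34703 (14424 to 78687) CPM (log2 fold change 1.44 ± 0.36, adjusted p = 0.016). Scd1 and Scd2 are close copies, so counts could be shared between them, and the difference between their rises was not tested. Scd1 lost its call without the 2-week replicate 5 (adjusted p = 0.053) and in the 12-library fit (adjusted p = 0.124). The 4 members with no call were Aacs (log2 fold change 0.88 ± 0.31), Gpam (log2 fold change 0.52 ± 0.31), Acacb (log2 fold change 0.38 ± 0.33) and Elovl5 (log2 fold change -0.03 ± 0.12).

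**Figure D1:**
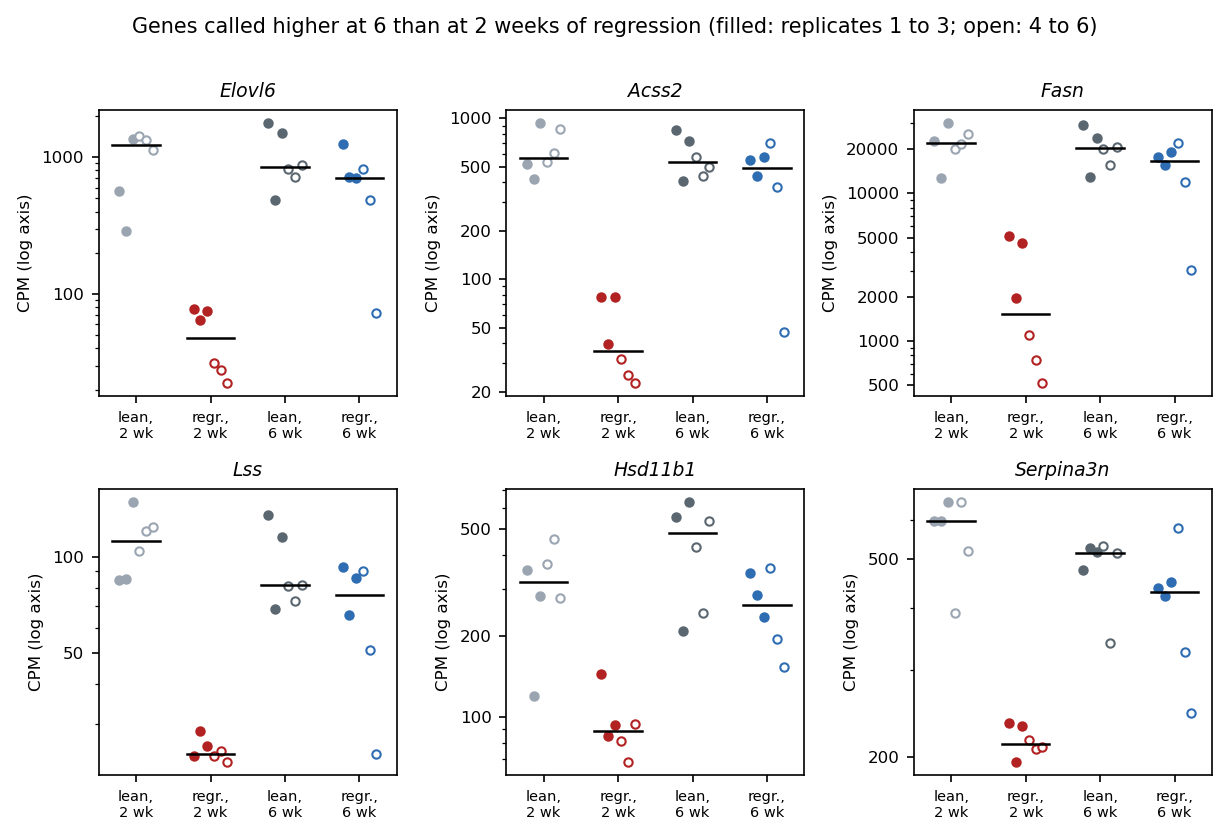
CPM on log axes of Elovl6, Acss2, Fasn, Lss, Hsd11b1 and Serpina3n in each mouse of the lean and regression groups at 2 and 6 weeks; filled points are replicates 1 to 3, open points replicates 4 to 6, and lines are group medians. For Elovl6 the 2-week regression mice lie between 22.3 and 77.5 CPM and 5 of the 6-week mice at 484 CPM or more, with replicate 6 at 72.1.

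Summed over the list, lipogenesis genes held 170865, 135916, 157278, 173545, 104099 and 49627 CPM in the 6-week replicates 1 to 6 and 88595, 56024, 62797, 19489.6, 17563 and 20892 CPM in the 2-week replicates 1 to 6. At 2 weeks replicates 1 to 3 held more than replicates 4 to 6, with no overlap. The 6-week sums lay above every 2-week sum except in replicate 6. The list median of the difference was 1.33 within replicates 1 to 3 and 2.30 within replicates 4 to 6. Without single libraries 11 to 15 members were called, and 7 of 18 in the 12-library fit.

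Of 11 genes of triglyceride assembly, 5 were higher and 0 lower, with a median of 0.57. Mogat2, an acyltransferase that makes diacylglycerol, stood at 20.004 (1.58 to 41.2) CPM at 6 weeks and 2.36 (1.11 to 4.28) at 2 weeks (log2 fold change 3.07 ± 0.54, adjusted p = 0.001). Agpat2, which acylates lysophosphatidic acid, stood at 649 (204 to 956) and 162 (122 to 264) CPM (log2 fold change 1.77 ± 0.35, adjusted p = 0.00324). Dgat2, which adds the last acyl chain, stood at 2661 (1065 to 4383) and 1007 (479.98 to 1678) CPM (log2 fold change 1.43 ± 0.31, adjusted p = 0.00523). The groups overlapped in all 3, through the lowest 6-week mice. Without the 6-week replicate 4 the list kept 3 calls, and the 12-library fit gave 2. Mogat2 lost its call in limma voom with runs of neighbouring mouse numbers as a random block (adjusted p = 0.169).

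Of 22 cholesterol genes, 7 were higher and 0 lower, with a median of 0.61. Pmvk, a kinase of the mevalonate path, had 74.7 (22.5 to 126) CPM at 6 weeks and 22.2 (6.25 to 31.1) at 2 weeks (log2 fold change 1.67 ± 0.32, adjusted p = 0.00221), and Lss, the lanosterol synthase, had 75.9 (24.001 to 92.8) and 24.1 (22.7 to 28.5) CPM (log2 fold change 1.48 ± 0.30, adjusted p = 0.00384). For both the groups overlapped. The early enzyme Hmgcs1 (log2 fold change 0.32 ± 0.25, adjusted p = 0.454) did not pass. The list had 11 calls without the 6-week replicate 6, 5 without each of the 6-week replicates 1 to 4 and the 2-week replicate 4, and 3 with the replicate number or runs of neighbouring mouse numbers as a block.

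Upstream of lipogenesis, 7 of 22 genes of the citrate cycle and pyruvate dehydrogenase were higher and 0 lower (median 0.33), and so were 7 of 21 of glucose uptake and glycolysis (median 0.28). Pcx, pyruvate carboxylase, which supplies oxaloacetate for citrate, had 1974 (773 to 2632) CPM at 6 weeks and 651 (399.1 to 1353) at 2 weeks (log2 fold change 1.27 ± 0.30, adjusted p = 0.011). Both E1 subunit genes of pyruvate dehydrogenase rose, Pdhb (log2 fold change 1.23 ± 0.23, adjusted p = 0.00201) and Pdha1 (log2 fold change 0.96 ± 0.22, adjusted p = 0.00718). The kinases that switch this enzyme off moved in opposite directions. Pdk1 had 124 (70.3 to 151) CPM at 6 weeks and 61.7 (55.5 to 88.7) at 2 weeks (log2 fold change 0.90 ± 0.22, adjusted p = 0.0121), while Pdk4, which is known to be induced by fasting and fatty acids, had 55.3 (42.3 to 76.3) and 119.7 (55.1 to 225) CPM (log2 fold change -1.22 ± 0.31, adjusted p = 0.0168). Pdk4 lost its call without the 6-week replicate 3 or 4 or the 2-week replicate 5 or 6.

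Of glucose handling, Slc2a4, the insulin-regulated glucose transporter GLUT4, stood at 246 (135 to 377) CPM at 6 weeks and 133 (84.9 to 220.2) at 2 weeks (log2 fold change 0.87 ± 0.24, adjusted p = 0.0272). Ldha, lactate dehydrogenase, stood at 689.7 (361 to 929) and 346 (267 to 466.9) CPM (log2 fold change 0.88 ± 0.19, adjusted p = 0.0047), and Gapdh rose too (log2 fold change 0.89 ± 0.22, adjusted p = 0.0126). Slc2a5, a fructose transporter, was called at low levels, 5.27 (0.453 to 6.77) and 0.776 (0 to 2.36) CPM (adjusted p = 0.0494). The groups overlapped for all 4. Slc2a5 kept its call only without the 6-week replicate 6 or the 2-week replicate 6, Slc2a4 lost it without the 6-week replicate 3 or 4 or the 2-week replicate 4, 5 or 6, and Gapdh lost it without the 6-week replicate 4. The counts depended on single libraries. Glycolysis had 1 call without the 6-week replicate 4, 3 without the 6-week replicate 3, the 2-week replicate 4 or the 2-week replicate 5, and 4 without the 6-week replicate 1 or the 2-week replicate 6. The citrate list had 3 without the 6-week replicate 4, 4 without the 2-week replicate 5 and 12 without the 6-week replicate 6. Each list had 1 call in the 12-library fit.

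Genes of mitochondrial fuel use gave few calls. Of 23 respiratory chain genes 2 were higher, Uqcrfs1 (log2 fold change 0.57 ± 0.16, adjusted p = 0.0317) and Ndufs1 (log2 fold change 0.39 ± 0.12, adjusted p = 0.0448), with a list median of 0.15. When 1 library was left out, Ndufs1 stayed called only without the 6-week replicate 5 or 6 or the 2-week replicate 1, and Uqcrfs1 lost its call without the 6-week replicate 1, 3 or 4 or the 2-week replicate 4, 5 or 6. No gene passed among 18 of fatty acid oxidation (median -0.03), 18 of branched-chain amino acid breakdown (median 0.21), 14 of lipolysis (median 0.24) or 10 of fatty acid uptake (median 0.02).

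The transcription factors that drive lipogenesis gave no call in their own RNA with all libraries fitted. Of 9 lipogenic regulators only Insig1, which holds SREBP in the endoplasmic reticulum and is itself an SREBP target, was called, at 434.3 (199 to 667) CPM at 6 weeks and 178 (125 to 201) at 2 weeks (log2 fold change 1.32 ± 0.39, adjusted p = 0.0431). That call held in 3 of the 12 fits that left out 1 library, those without the 6-week replicate 6, the 2-week replicate 1 or the 2-week replicate 3. Srebf1, which encodes SREBP-1, had 574 (448.2 to 707) CPM at 6 weeks and 353 (238 to 742) at 2 weeks (log2 fold change 0.37 ± 0.26, adjusted p = 0.403), and the groups overlapped widely. Mlxipl, which encodes ChREBP, had 143 (81.4 to 151) and 71.6 (54.4 to 125) CPM (log2 fold change 0.68 ± 0.25, adjusted p = 0.0955). Mlxipl was called in 2 of the 12 fits that left out 1 library, those without the 6-week replicate 6 or the 2-week replicate 1. Pparg, the adipocyte master regulator, had 227 (193 to 285) and 149 (104 to 232) CPM (log2 fold change 0.47 ± 0.19, adjusted p = 0.133). Pparg was called in 1 of those 12 fits, without the 2-week replicate 1. The difference between a regulator and its targets was not tested.

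Adipocyte hormones and identity genes gave 2 higher and 1 lower of 19, with a median of 0.22. Lep, which encodes leptin, had 831 (553 to 1478) CPM at 6 weeks and 1061 (640.2 to 1319) at 2 weeks (log2 fold change -0.17 ± 0.27, adjusted p = 0.754), and Adipoq, which encodes adiponectin, had 3931 (2969.6 to 4827) and 2905 (2012 to 4967) CPM (log2 fold change 0.31 ± 0.22, adjusted p = 0.407). Both sets of mice overlapped. Resistin, Retn, rose from 146 (84.7 to 268) to 310.3 (156 to 576) CPM (log2 fold change 1.10 ± 0.33, adjusted p = 0.0426), and Cebpa, an adipocyte transcription factor, from 1256 (1105 to 2238) to 2398 (1879 to 3132) CPM (log2 fold change 0.73 ± 0.19, adjusted p = 0.0174). Retn kept its call in 5 of the 12 fits that left out 1 library and Cebpa in 9, the exceptions for Cebpa being the 6-week replicates 3 and 4 and the 2-week replicate 5. Retn lost it without the 6-week replicate 1, 2, 3 or 4 or the 2-week replicate 4, 5 or 6.

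The gene lower in that list was Sfrp5, a secreted frizzled-related protein that binds Wnt ligands (chromosome 19, 42197971 to 42202252). It had 84.3 (50.2 to 231) CPM at 6 weeks and 378 (264 to 452.6) at 2 weeks, with no overlap between the groups (log2 fold change -1.78 ± 0.43, adjusted p = 0.0115). Lean mice had medians of 94.8 and 70.5 CPM at the 6-week and 2-week ages. Lipolysis through Pnpla2, the triglyceride lipase ATGL, gave 2637 (1951 to 3877) and 2099 (1628 to 3588) CPM (log2 fold change 0.22 ± 0.23, adjusted p = 0.6).

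Other rises lay outside these paths. Hsd11b1, which regenerates active glucocorticoid inside the cell (chromosome 1, 193221634 to 193264075), had 261 (153 to 359) CPM at 6 weeks and 88.9 (68.1 to 145) at 2 weeks, with no overlap (log2 fold change 1.47 ± 0.27, adjusted p = 0.00174). Serpina3n, a secreted protease inhibitor of the acute phase (chromosome 12, 104406729 to 104414329), had 428.9 (245 to 579) and 213 (196 to 235) CPM, again with no overlap (log2 fold change 0.92 ± 0.15, adjusted p = 0.000617). It was the only call among 13 acute phase genes, and Saa3 (log2 fold change 0.75 ± 0.41, adjusted p = 0.26) did not pass. H2-Q10, a secreted class I MHC molecule, had 24.3 (9.62 to 46.3) and 4.37 (2.63 to 8.19) CPM with no overlap (log2 fold change 2.32 ± 0.47, adjusted p = 0.00407), though reads of this family can be split between near-identical members. H2-Q10 lost its call in limma voom with runs of neighbouring mouse numbers as a random block (adjusted p = 0.169).

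Nr1d1, the clock repressor REV-ERB alpha, was the only call of 16 clock genes, at 429.8 (326 to 533) CPM at 6 weeks and 248 (190.4 to 337) at 2 weeks (log2 fold change 0.76 ± 0.16, adjusted p = 0.00438). Cdkn2c, a cyclin-dependent kinase inhibitor, had 220.4 (115 to 433.2) and 134 (83.1 to 155) CPM (log2 fold change 1.09 ± 0.25, adjusted p = 0.0081). The groups overlapped for both. Among the largest rises, Ncan, a proteoglycan core protein, had 31.98 (5.77 to 51.5) and 4.52 (1.93 to 9.02) CPM (log2 fold change 2.81 ± 0.52, adjusted p = 0.00174), Prrt4 had 11.7 (2.26 to 26.7) and 1.98 (0 to 3.49) CPM (log2 fold change 2.58 ± 0.53, adjusted p = 0.00407), and the copper oxidase Hephl1 had 10.6 (0.679 to 17.1) and 1.29 (0.413 to 4.89) CPM (log2 fold change 2.41 ± 0.63, adjusted p = 0.0212). Hephl1 lost its call without the 6-week replicate 1 or 4 or the 2-week replicate 4, 5 or 6. In limma voom with runs of neighbouring mouse numbers as a random block, Ncan, Prrt4 and Hephl1 lost theirs (adjusted p of 0.0879, 0.209 and 0.383). Antioxidant genes gave 2 higher of 19, Prdx6 (log2 fold change 0.64 ± 0.15, adjusted p = 0.011) and Gclm (log2 fold change 0.50 ± 0.15, adjusted p = 0.0487), and thermogenic genes 1 of 13, the coactivator Ppargc1b (log2 fold change 0.76 ± 0.20, adjusted p = 0.0224). Prdx6 lost its call only without the 6-week replicate 4, Ppargc1b without the 6-week replicate 1 or 2 or the 2-week replicate 4 or 6, and Gclm kept it only without the 6-week replicate 6 or the 2-week replicate 1.

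**Figure D2:**
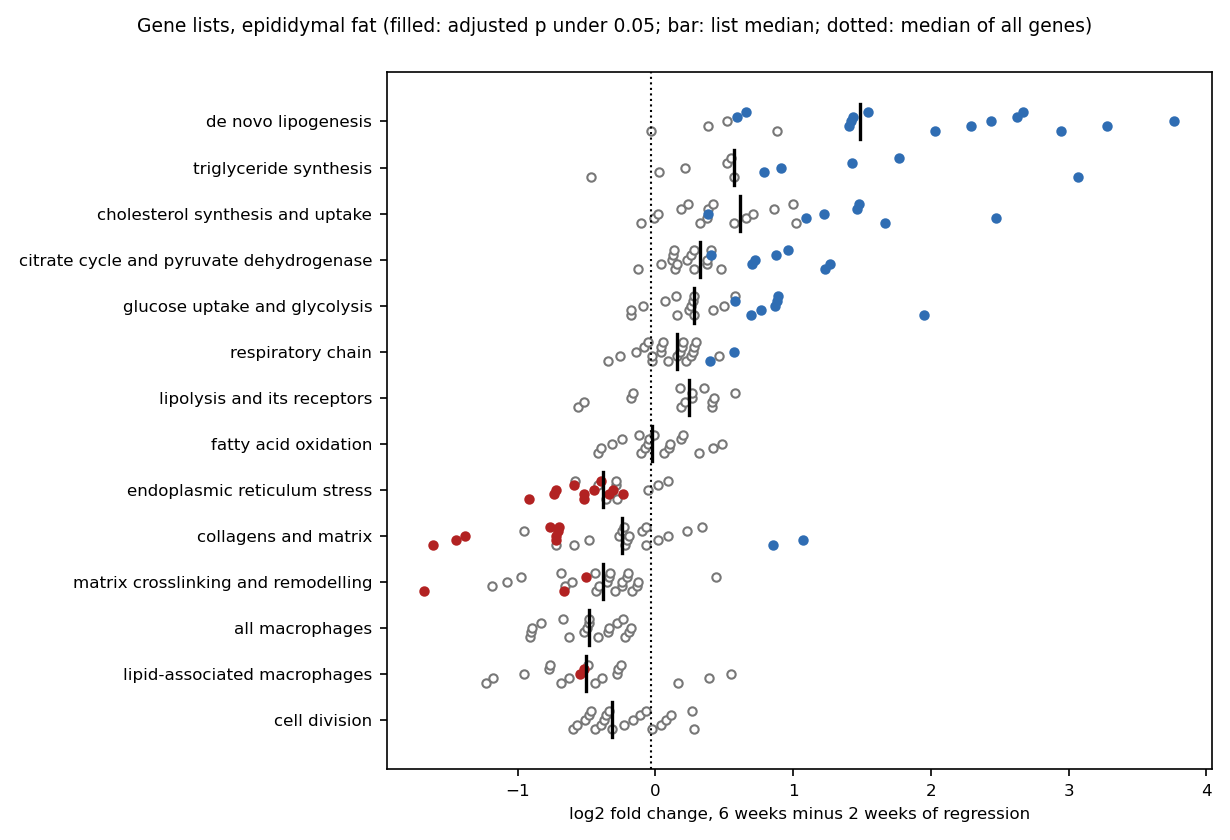
Log2 fold change from 2 to 6 weeks of regression for each gene of 14 lists, 1 point a gene, filled where the adjusted p is under 0.05; the short line marks the list median and the dotted vertical line the median of all genes tested. De novo lipogenesis lies farthest to the right at a median of 1.49, with 14 of 18 genes called, and endoplasmic reticulum stress lies to the left at -0.38, with 11 of 20 called.

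Chaperone genes of the endoplasmic reticulum fell, though not all of them. Of 20 genes of endoplasmic reticulum stress, 11 were lower at 6 weeks and 0 higher, 18 of 20 had a negative difference, and the median was -0.38. The 250 bases before the RefSeq start (GRCm38.p6) were searched, on both strands, for the endoplasmic reticulum stress response element, CCAAT and CCACG with 9 bases between them. A window was available for 10876 of the 14323 genes tested, and 17 of these (0.156%) held the element. It was in 7 of the 18 list members with a window: 7 of the 9 that were called and 0 of the 9 that were not. Of the other 10 genes that held it, 0 were called. The 8 sites of the 7 genes are printed because they are the letters those chaperone promoters share; capitals mark the CCAAT and CCACG parts, or their reverse complements, and each runs 5′ to 3′ on the gene's strand.
Calr, chr8:84847065-84847103, minus strand, log2 fold change -0.34: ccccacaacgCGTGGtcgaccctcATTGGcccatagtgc
Canx, chr11:50325790-50325828, minus strand, log2 fold change -0.31: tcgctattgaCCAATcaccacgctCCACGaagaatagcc
Creld2, chr15:88819510-88819548, plus strand, log2 fold change -0.74: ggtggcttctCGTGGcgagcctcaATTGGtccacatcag
Dnajc3, chr14:118937817-118937855, plus strand, log2 fold change -0.23: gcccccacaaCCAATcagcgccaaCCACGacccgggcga
Hsp90b1, chr10:86705628-86705666, minus strand, log2 fold change -0.52: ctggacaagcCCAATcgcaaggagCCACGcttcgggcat
Hsp90b1, chr10:86705523-86705561, minus strand, log2 fold change -0.52: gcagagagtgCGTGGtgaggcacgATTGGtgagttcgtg
Hspa5, chr2:34772015-34772053, plus strand, log2 fold change -0.59: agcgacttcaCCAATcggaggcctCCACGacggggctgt
Pdia6, chr12:17266481-17266519, plus strand, log2 fold change -0.45: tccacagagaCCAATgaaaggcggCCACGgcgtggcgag
These matches are descriptions of the letters in the window, and no binding was measured. Other motifs were searched in the same windows: the CCAAT box alone, the E-box and the sterol response element. In the list the CCAAT box was in 9 of 9 called and 6 of 9 uncalled members. It was in 39.7% of all genes with a window and in 14 of 14 cholesterol genes. The E-box was in 1 of 9 called and 1 of 9 uncalled members, against 9.49% of all genes with a window. The sterol response element was searched as 1 exact string of letters, with no variants allowed. It was in 8 of all 10876 genes with a window (0.0736%). It was in 0 of 18 list members, 0 of 16 lipogenesis genes and 0 of 14 cholesterol genes. With so rare a string, 0 in lists of this size cannot show whether these promoters hold sterol elements.

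Hspa5, which encodes the chaperone BiP (chromosome 2, 34771970 to 34777547), had 390.2 (365 to 496) CPM at 6 weeks and 625 (413.9 to 869) at 2 weeks (log2 fold change -0.59 ± 0.11, adjusted p = 0.00185). The overlap came from the 6-week replicate 6 at 496 CPM and the 2-week replicates 1 and 2 at 413.9 and 424.1 CPM. Hsp90b1, the chaperone GRP94, had 205 (190.3 to 231) and 289.5 (217 to 401.3) CPM (log2 fold change -0.52 ± 0.10, adjusted p = 0.00201). Pdia6, a disulfide isomerase, had 83.1 (75.6 to 90.9) and 113 (88.6 to 143) CPM (log2 fold change -0.45 ± 0.09, adjusted p = 0.00242), and Hyou1, a nucleotide exchange factor for BiP, had 74.9 (69.5 to 84.3) and 107 (77.7 to 157) CPM (log2 fold change -0.52 ± 0.10, adjusted p = 0.00192). In Hsp90b1 and Pdia6 the 2-week replicate 1 was the only mouse of its group within the 6-week range, and in Hyou1 the 2-week replicates 1 and 2 were. The calnexin cycle genes Canx (log2 fold change -0.31 ± 0.08, adjusted p = 0.0191) and Calr (log2 fold change -0.34 ± 0.10, adjusted p = 0.0425) fell too. Canx lost its call without the 6-week replicate 4 or the 2-week replicate 5, and Calr without the 6-week replicates 1 to 4 or the 2-week replicates 4 to 6, 1 at a time.

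The remaining called members were Sdf2l1 (log2 fold change -0.92 ± 0.25), Creld2 (log2 fold change -0.74 ± 0.18), Manf (log2 fold change -0.72 ± 0.14), Herpud1 (log2 fold change -0.40 ± 0.11) and Dnajc3 (log2 fold change -0.23 ± 0.06), at adjusted p-values of 0.0275, 0.011, 0.00254, 0.0317 and 0.0272. Sdf2l1 lost its call without the 6-week replicates 1 to 4 or the 2-week replicates 4 or 5, Herpud1 without the 6-week replicates 1 to 4 or the 2-week replicates 3 or 5, Dnajc3 without the 6-week replicates 1, 3 or 4 or the 2-week replicates 4 or 5, and Creld2 without the 2-week replicate 5, 1 at a time. Dnajc3, a co-chaperone of BiP, was the only called member with no overlap, at 158 (141 to 169.6) and 182 (173 to 211) CPM. Hsph1, a cytosolic heat shock protein outside the list, fell from 54.7 (38.7 to 106) to 20.1 (16.5 to 43.5) CPM (log2 fold change -1.39 ± 0.29, adjusted p = 0.00438). The transcription factor genes of the response gave no call: Xbp1 0.02 ± 0.13, Atf4 -0.29 ± 0.10 and Ddit3 -0.42 ± 0.14. The list median was -0.37 within replicates 1 to 3 and -0.38 within replicates 4 to 6. The count of calls was 7, 7 and 6 without the 6-week replicate 1, 3 or 4, 5 without the 2-week replicate 5 and 0 in the 12-library fit, where Hspa5 had an adjusted p of 0.0927.

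Summed, the endoplasmic reticulum list held 2553, 2630.1, 2508, 2541, 2719.7 and 2998 CPM in the 6-week replicates 1 to 6 and 2883, 3021, 3595, 3456, 4181 and 3138 CPM in the 2-week replicates 1 to 6. The lowest 2-week sums were those of replicates 1 and 2, and the highest 6-week sum was that of replicate 6. The 18 general macrophage markers summed to 3227, 3883, 1836, 1484, 5022 and 7431 CPM and 2136, 3675, 6749, 6051, 6118 and 5064 CPM in the same order, with the lowest 2-week sums in replicates 1 and 2 and the highest 6-week sum in replicate 6. The part of macrophages in the chaperone result was not tested. In bulk tissue fewer cells of a type and less RNA per cell cannot be told apart.

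**Figure D3:**
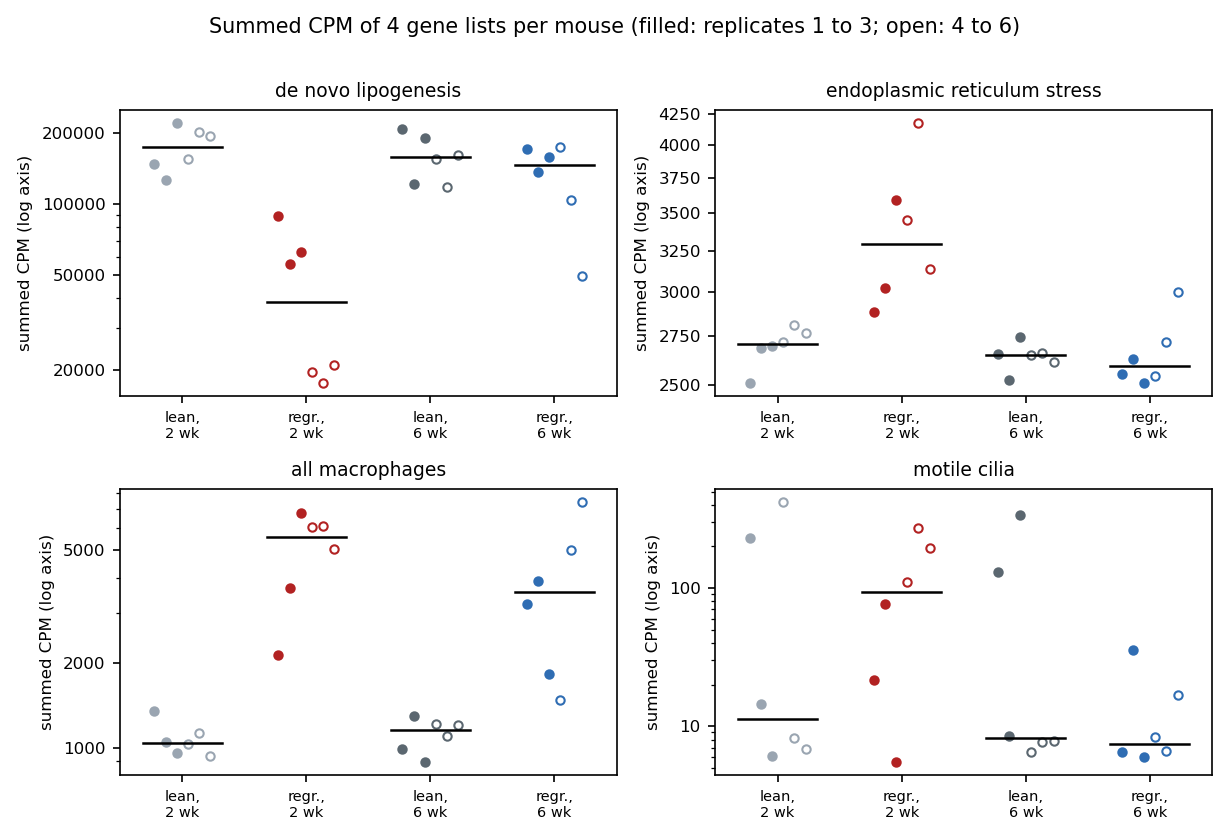
Summed CPM per mouse on log axes for de novo lipogenesis, endoplasmic reticulum stress, general macrophage markers and motile cilia genes in the lean and regression groups at 2 and 6 weeks; filled points are replicates 1 to 3, open points replicates 4 to 6, and lines are medians. The 6-week replicate 6 is the lowest of its group for lipogenesis at 49627 CPM and the highest for macrophages at 7431 CPM.

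Matrix genes moved in both directions. Of 27 genes of collagens and matrix, 8 were lower and 2 higher, with a median of -0.24. Thbs1 and Thbs2, matricellular thrombospondins of which the first is known to activate latent TGF-beta, were separate between the times. Thbs1 (chromosome 2, 118111876 to 118127133) had 149 (77.9 to 251) CPM at 6 weeks and 442.9 (313 to 797) at 2 weeks (log2 fold change -1.61 ± 0.50, adjusted p = 0.0486). Thbs2 (chromosome 17, 14665500 to 14694235) had 35.7 (23.0 to 62.2) and 108 (83.9 to 133) CPM (log2 fold change -1.45 ± 0.25, adjusted p = 0.00104). Postn, periostin, made by activated fibroblasts (chromosome 3, 54361109 to 54391037), had 50.3 (41.8 to 96.5) and 153 (105 to 196) CPM (log2 fold change -1.38 ± 0.22, adjusted p = 0.000616). All 6 mice of the 6-week group lay below all 6 of the 2-week group in the 3 genes. Thbs2 and Postn kept their calls without any 1 library, while Thbs1 kept it only without the 6-week replicate 6, the 2-week replicate 1 or the 2-week replicate 3, and passed in the 12-library fit (adjusted p = 0.0307).

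The fibrillar collagen genes Col1a1 and Col3a1 fell with overlapping groups. Col1a1 had 146 (135 to 196) CPM at 6 weeks and 282 (131 to 392.8) at 2 weeks (log2 fold change -0.76 ± 0.21, adjusted p = 0.0269), and Col3a1 had 422.9 (380.1 to 497) and 691 (368 to 962) CPM (log2 fold change -0.70 ± 0.20, adjusted p = 0.0324). The other lower members were Col14a1, Col1a2 and Eln. Col1a1 lost its call without the 6-week replicate 1, 2 or 4 or the 2-week replicate 4, 5 or 6, and Col3a1 without the 6-week replicates 1 to 4 or the 2-week replicates 4 to 6, 1 at a time. The members that rose were Col15a1, a basement membrane collagen, from 211 (144 to 256) to 349.5 (216 to 534) CPM (log2 fold change 0.86 ± 0.19, adjusted p = 0.00688), and Col5a3, from 172 (132 to 246) to 395.2 (167 to 493) CPM (log2 fold change 1.07 ± 0.23, adjusted p = 0.00562), both named after their values were seen. Lower members numbered 5 without each of the 6-week replicates 1 to 4 and the 2-week replicate 4, 4 without the 2-week replicate 6, and 3 in the 12-library fit. The list median was -0.12 within replicates 1 to 3 and -0.52 within replicates 4 to 6.

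Of 24 genes that crosslink or remodel matrix, 3 were lower and 0 higher (median -0.38): Mmp3, a stromelysin at 1.21 (0.831 to 3.96) CPM at 6 weeks and 5.41 (2.27 to 10.4) at 2 weeks (log2 fold change -1.68 ± 0.49, adjusted p = 0.0407), Plod2, a lysyl hydroxylase (log2 fold change -0.67 ± 0.18, adjusted p = 0.0297), and P4ha1, a prolyl hydroxylase (log2 fold change -0.50 ± 0.15, adjusted p = 0.0395). The count was 8 without the 6-week replicate 6 and 0 without the 6-week replicate 1, 3 or 4, without the 2-week replicate 4 or 5, and in the 12-library fit. Mmp3 was also lost without the 6-week replicate 2 or the 2-week replicate 6, Plod2 without the 2-week replicate 2 and P4ha1 without the 2-week replicate 3. Timp1, an inhibitor of matrix proteases, had -1.19 ± 0.48 (adjusted p = 0.135). Of 15 markers of adipose progenitors and fibroblasts 0 were called (median -0.10), and of 10 of mesothelium 0 were called (median 0.09). Mfap4, a microfibril protein, fell from 12.3 (7.86 to 19.1) to 3.38 (2.37 to 6.0004) CPM with no overlap (log2 fold change -1.68 ± 0.47, adjusted p = 0.0303), and lost its call without the 6-week replicates 1 to 4 or the 2-week replicates 5 or 6, 1 at a time.

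**Figure D4:**
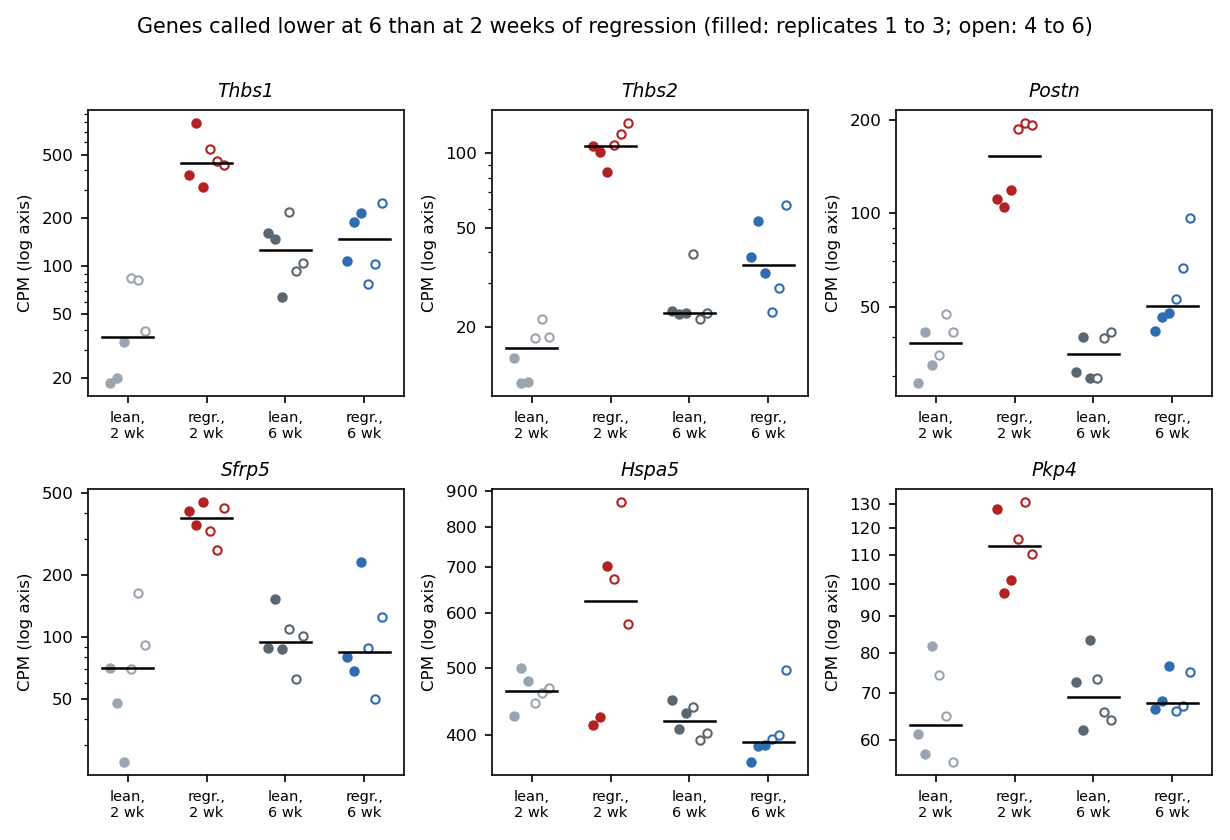
CPM on log axes of Thbs1, Thbs2, Postn, Sfrp5, Hspa5 and Pkp4 in each mouse of the lean and regression groups at 2 and 6 weeks; filled points are replicates 1 to 3, open points replicates 4 to 6, and lines are medians. For Thbs2 the 6-week regression mice lie between 23.0 and 62.2 CPM and the 2-week mice between 83.9 and 133 CPM.

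The other large falls had varied roles. Ubd, a ubiquitin-like protein induced by inflammatory cytokines, had 12.98 (5.34 to 16.5) CPM at 6 weeks and 50.4 (11.9 to 79.7) at 2 weeks (log2 fold change -2.02 ± 0.52, adjusted p = 0.0197), with overlap, and lost its call without the 6-week replicate 3 or 4 or the 2-week replicate 4 or 5. Pkp4, a plakophilin of cell junctions, had 67.7 (66.1 to 76.5) and 113 (97.2 to 131) CPM with no overlap (log2 fold change -0.71 ± 0.12, adjusted p = 0.000617). Fgfr3, a fibroblast growth factor receptor, had 5.70 (4.91 to 6.91) and 13.4 (9.02 to 22.9) CPM with no overlap (log2 fold change -1.45 ± 0.42, adjusted p = 0.0397) and kept its call in 4 of the 12 fits that left out 1 library, without the 6-week replicate 6 or the 2-week replicate 1, 2 or 3. Klf4, an early response transcription factor, fell too (log2 fold change -0.61 ± 0.15, adjusted p = 0.0118), the only call of 21 immediate early genes. Rps29 fell from 22.5 (17.2 to 38.6) to 11.2 (8.15 to 16.0) CPM with no overlap (log2 fold change -1.12 ± 0.24, adjusted p = 0.00563), though ribosomal protein genes have many near-identical copies that counting could split. Of 18 insulin signalling genes, Socs2, a suppressor of cytokine signalling, was the only call (log2 fold change -0.49 ± 0.14, adjusted p = 0.0362), lost without the 6-week replicates 2 to 5 or the 2-week replicates 4 or 5, 1 at a time. Vwa3a fell from 17.5 (0 to 24.2) to 6.13 (4.38 to 7.13) CPM (log2 fold change -1.36 ± 0.40, adjusted p = 0.0395). When 1 library was left out, Vwa3a kept its call only without the 6-week replicate 6 or the 2-week replicate 1, 2 or 3. With the signal of motile cilia genes as a term in the edgeR fit, added after seeing the data, Vwa3a lost its call (adjusted p = 0.064). Hypoxia targets were mixed, 3 higher (Pdk1, Ldha and Egln3) and 2 lower (Adm and P4ha1) of 16, with a median of -0.16. Egln3 lost its call without the 6-week replicate 1 or 4 or the 2-week replicate 4, 5 or 6.

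Macrophage markers varied between mice. Of the 18 general markers 0 were called, although all 18 had a negative difference, with a median of -0.48. Cd68, a lysosomal macrophage protein, had 111 (24.9 to 370.3) CPM at 6 weeks and 268 (80.7 to 357) at 2 weeks (log2 fold change -0.83 ± 0.50, adjusted p = 0.316), while lean mice of the 2 ages had medians of 18.4 and 20.8 CPM. Without the 6-week replicate 6, Cd68 gave a log2 fold change of -1.44 at an adjusted p of 0.0583, and 1 of the 18 general markers, Tyrobp, was lower, with a list median of -0.771. Of 18 lipid-associated macrophage markers 2 were lower and 0 higher (median -0.51): Ctsl, cathepsin L (log2 fold change -0.55 ± 0.16, adjusted p = 0.0396), and Cd63, a tetraspanin of lysosomes (log2 fold change -0.52 ± 0.15, adjusted p = 0.0318). Ctsl kept its call only without the 6-week replicate 6, the 2-week replicate 1 or the 2-week replicate 3, and Cd63 only without the 6-week replicate 6, the 2-week replicate 1 or the 2-week replicate 6. Without the 6-week replicate 6 the list had 4 lower (Cd9 and Lgals3 besides these) and 1 higher (Lpl), with a median of -0.825, and in the 12-library fit it had 0.

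The defining lipid-associated markers spread widely. Trem2, a lipid receptor, had 52.9 (6.77 to 229) CPM at 6 weeks and 145 (32.7 to 187) at 2 weeks (log2 fold change -0.78 ± 0.63, adjusted p = 0.481). Gpnmb, a lysosomal glycoprotein, had 239 (25.1 to 1267) and 895 (214 to 1433) CPM (log2 fold change -1.23 ± 0.70, adjusted p = 0.289). At 6 weeks replicate 6 was the highest mouse for both. Without replicate 6, Gpnmb gave -2.15 at an adjusted p of 0.0508. Mmp12 (log2 fold change -0.44 ± 0.74, adjusted p = 0.777) and Spp1 (log2 fold change -0.95 ± 0.94, adjusted p = 0.572) did not pass either.

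No gene was called among 14 markers of resident macrophages (median -0.18, F13a1 0.15 ± 0.18), 27 chemokines and cytokines (median -0.27, Ccl2 -0.70 ± 0.42, adjusted p = 0.313), 16 of T and cytotoxic cells (median 0.40, Cd8a 0.68 ± 0.68), 9 of B cells (median 0.86) or 21 of cell division (median -0.32, Mki67 -0.32 ± 0.48). Cell division differed in sign between the series of mouse numbers, with a list median of 0.27 within replicates 1 to 3 and -0.37 within replicates 4 to 6. Motile cilia genes, 12 tested and 0 called, had the lowest list median, -2.82, and the sums per library were 6.53, 35.6, 5.96, 8.31, 6.58 and 16.8 CPM in the 6-week replicates 1 to 6 and 21.7, 76.4, 5.50, 109.8, 273 and 195 in the 2-week replicates 1 to 6. These genes belong to no adipose cell type, and the list median was -0.45 within replicates 1 to 3 and -3.59 within replicates 4 to 6. With their signal as a term in the fit, added after seeing the data, 594 genes were called in place of 686.

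Set against lean mice of the same ages, the called genes had larger median differences at 2 weeks than at 6 weeks. These contrasts share the regression libraries with the 6-against-2-week comparison, so their values are given side by side and not as further support. The 400 higher genes had a median log2 difference from lean of -0.88 at 2 weeks and -0.17 at 6 weeks, and the 286 lower genes had 0.53 and 0.04. In the 5 obese mice the medians were -0.35 and 0.09. De novo lipogenesis had list medians of -1.999 at 2 weeks, -0.40 at 6 weeks and -1.71 in obese mice. The chaperone list had 0.32, 0.03 and 0.04. General macrophage markers had 2.18, 1.66 and 1.71.

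Among single genes, Elovl6 stood -4.37 ± 0.57 from lean at 2 weeks and -0.61 ± 0.49 at 6 weeks on the log2 scale, and Fasn -3.23 ± 0.51 and -0.45 ± 0.47. Thbs2 stood 2.75 ± 0.27 and 0.65 ± 0.26, and Hspa5 0.40 ± 0.11 and -0.05 ± 0.11. Hsd11b1 and H2-Q10, though higher at 6 than at 2 weeks, stood -0.73 ± 0.26 and -1.12 ± 0.41 from lean at 6 weeks. Whether these differences from lean pass is not given here. Gpnmb stood 5.54 ± 0.85 at 2 weeks and 4.74 ± 0.83 at 6 weeks, and Mmp12, a macrophage elastase, 7.80 ± 1.08 and 8.52 ± 1.23.

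**Figure D5:**
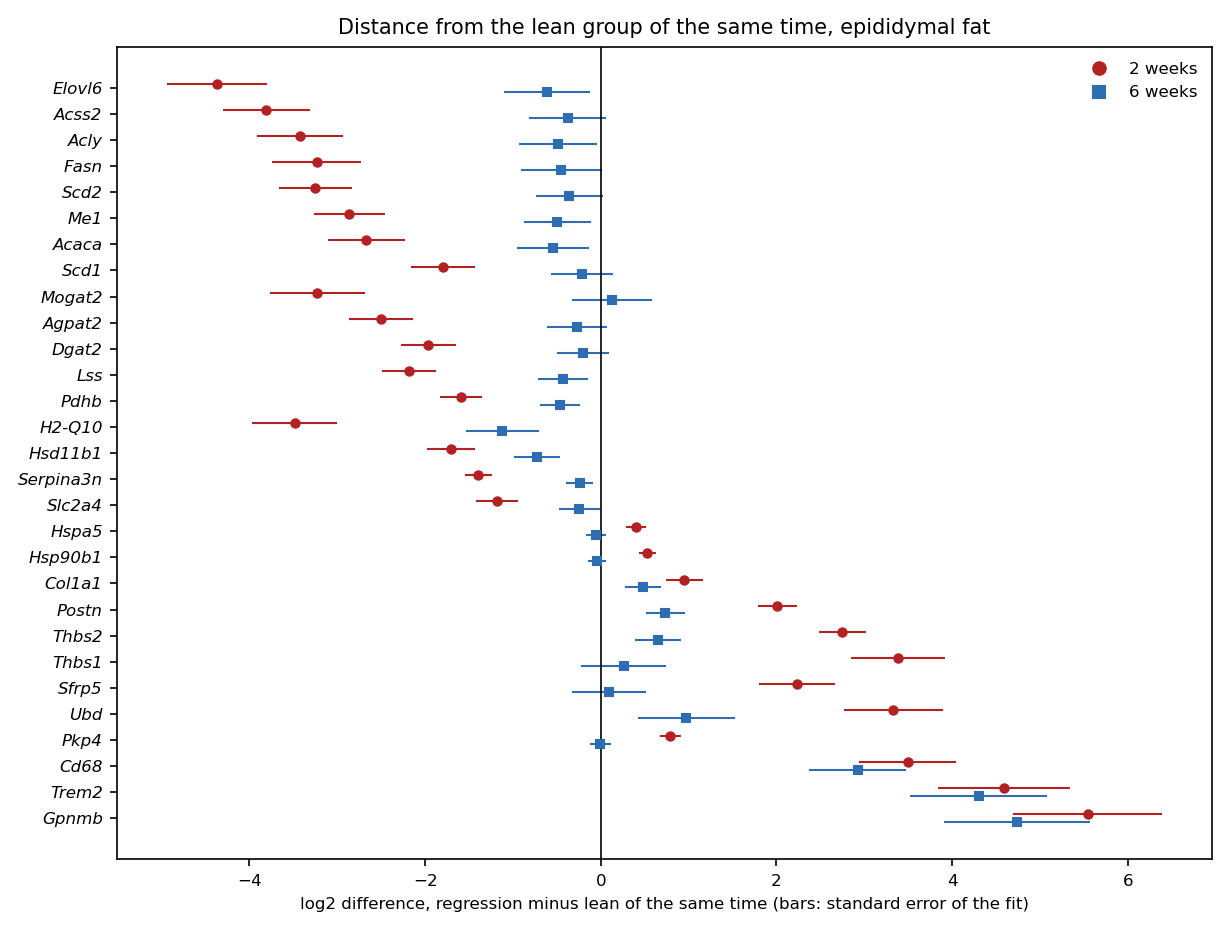
Log2 difference between regression mice and lean mice of the same age, with its SE, at 2 weeks and at 6 weeks for 29 named genes; the vertical line marks the lean level. Elovl6 moves from -4.37 to -0.61 and Thbs2 from 2.75 to 0.65, while Gpnmb stays at 4.74 at 6 weeks.

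Lean mice of the 2 ages differed little: 22 of 14323 genes (0.154%) passed, 4 higher (0.0279%) and 18 lower (0.126%) at the older age. The 22 calls became 3, 6, 0, 7 and 10 without the 6-week lean replicate 1, 2, 3, 4 or 6, and 0, 4, 36, 2 and 4 without the 2-week lean replicate 1, 2, 3, 5 or 6. Where edgeR called 0, 1237 and 889 genes had an unadjusted p under 0.05. None of the 686 genes of the regression comparison was among the 22. With 4.79% of all genes tested called there, few of 22 would overlap by chance, so this says little. The median lean change of the 686 genes was -0.05 for the 400 higher and -0.01 for the 286 lower. The lean calls with the largest changes were Pde4d, a cyclic AMP phosphodiesterase (log2 difference 0.89 ± 0.20), and Cdc42ep3 (log2 difference 0.81 ± 0.18) among those higher, and Cdkn2b, a cell cycle inhibitor (log2 difference -1.02 ± 0.21), and Mapk6 (log2 difference -0.90 ± 0.20) among those lower, at adjusted p-values of 0.0464, 0.0417, 0.0317 and 0.0431. Each of the 4 lost its call without the 6-week lean replicate 1, 3 or 4 or the 2-week lean replicate 1, 2, 5 or 6, and with the replicate number as a block.

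The change from 2 to 6 weeks was then tested against the change in lean mice over the same 4 weeks of age. It differed for 114 of 14323 genes (0.796%), 85 with a more positive change in regression mice (0.593%) and 29 with a more negative one (0.202%). Of the 18 lipogenesis genes 7 passed, with a list median of 1.61. The largest were Elovl6 (log2 difference 3.76 ± 0.72, adjusted p = 0.00778), Hephl1 (log2 difference 3.55 ± 0.83, adjusted p = 0.0281), Acss2 (log2 difference 3.43 ± 0.65, adjusted p = 0.00778) and Mogat2 (log2 difference 3.35 ± 0.70, adjusted p = 0.0157). In the other direction were Thbs1 (log2 difference -3.13 ± 0.70, adjusted p = 0.0238), Thbs2 (log2 difference -2.10 ± 0.36, adjusted p = 0.00778), Dusp8, a phosphatase of MAP kinases (log2 difference -1.61 ± 0.33, adjusted p = 0.0157), and the growth factor Btc (log2 difference -1.53 ± 0.31, adjusted p = 0.0133).

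Thbs1 had a lean change of 1.51 ± 0.50 (adjusted p = 0.249), opposite in sign to its regression change, while Elovl6 had 0.01 ± 0.49. Of the 20 chaperone genes 1 passed, Hsp90b1 (log2 difference -0.57 ± 0.14, adjusted p = 0.0322), with a list median of -0.35, and Hspa5 gave -0.46 ± 0.16 (adjusted p = 0.13). Leptin showed 0.80 ± 0.38 (adjusted p = 0.29), beside a lean change of -0.97 ± 0.27 (adjusted p = 0.166). The 114 calls became 58, 45, 24 and 450 without the 6-week regression replicate 1, 3, 4 or 6, and 360, 233, 60, 33 and 44 without the 2-week regression replicate 1, 3, 4, 5 or 6. They became 73 and 61 without the 6-week lean replicate 2 or 3, and 61, 37 and 306 without the 2-week lean replicate 1, 3 or 4. With runs of neighbouring mouse numbers as a random block there were 10, and of the 8 genes named above as largest only Thbs2 and Btc kept the call. Hephl1 also lost it without the 6-week regression replicate 1, 3 or 4, the 2-week regression replicate 4, 5 or 6 or the 2-week lean replicate 3, and Thbs1 without the 6-week regression replicate 4 or the 2-week lean replicate 3.

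Inguinal fat of the same 12 mice gave the comparison between depots, fitted over 94 libraries with mouse as a block. The change from 2 to 6 weeks differed between depots for 177 of 14749 genes (1.2%), 144 more positive in epididymal fat (0.976%) and 33 more negative (0.224%). Of the 18 lipogenesis genes 0 passed the depot test, with a list median of -0.18. Elovl6 rose by 4.24 ± 0.56 in inguinal fat (adjusted p = 1.13e-05), and the depot difference was -0.57 ± 0.30 (adjusted p = 0.348). Fasn rose there by 2.81 ± 0.46 (adjusted p = 0.000121), with a depot difference of -0.08 ± 0.26. Of the 20 chaperone genes 0 passed the depot test, with a list median of 0.11.

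Serpina3n had an inguinal change of -0.33 ± 0.21 and a depot difference of 1.09 ± 0.25 (adjusted p = 0.021). Fatty acid oxidation had 3 of 18 genes with a more negative change in epididymal fat, and thermogenic genes 3 of 13. In epididymal fat itself these lists had medians of -0.03 and -0.35, with 0 lower calls. Their median depot differences were -0.50 and -1.24. Cpt1b, a mitochondrial carnitine transferase, gave a depot difference of -2.52 ± 0.54 (adjusted p = 0.0155) and Acot11, a thioesterase of brown fat, -2.85 ± 0.73 (adjusted p = 0.0351). More positive in epididymal fat were 3 of 13 acute phase genes, 3 of 14 resident macrophage genes, 3 of 20 interferon-induced genes and 3 of 21 immediate early genes. So were 2 of 15 glucocorticoid targets and 2 of 27 chemokines and cytokines. The largest were Slfn4, an interferon-induced gene of myeloid cells (log2 difference 4.60 ± 0.87, adjusted p = 0.00717), the lubricant proteoglycan Prg4 (log2 difference 3.36 ± 0.58, adjusted p = 0.00717), F10, coagulation factor X (log2 difference 3.13 ± 0.70, adjusted p = 0.0195), and the early gene Fosb (log2 difference 3.12 ± 0.67, adjusted p = 0.0157). In epididymal fat itself these 4 were not called, with log2 fold changes of 0.01 ± 0.51, 0.80 ± 0.37, -0.14 ± 0.52 and 0.25 ± 0.51, and in inguinal fat all 4 fell, with log2 fold changes of -4.33 ± 0.75, -3.40 ± 0.64, -3.09 ± 0.72 and -3.27 ± 0.83 (adjusted p of 0.000171, 0.000346, 0.00184 and 0.00363). Of the depot genes named here, Slfn4 and Prg4 kept their calls in every alternative. Acot11 lost its call without the mouse of the 6-week replicate 1, 2 or 4 or of the 2-week replicate 2, 4, 5 or 6 and in the fit of the compared groups alone, and Cpt1b and F10 lost theirs without the mouse of the 2-week replicate 5. With limma voom Acot11, Cpt1b and Fosb were not called. The 177 calls became 9 (0.0611%) without the mouse of the 2-week replicate 5, 2.66% of genes without that of the 2-week replicate 3, and 52, 82 and 110 without those of the 6-week replicates 1, 2 and 5.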

How the data were processed

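Epididymal and inguinal fat of 47 mice was sequenced, 1 library per depot and mouse. The authors deposited gene counts, not normalized, and per the submitters' processing notes STAR 2.4.1c, the mm10 build, R 4.2.2 and DESeq2 1.38.3 were used, and no source used here names the counting program, annotation or strand setting. Counts were fitted with edgeR 4.0.16 in R 4.3.3 (TMM, filterByExpr, quasi-likelihood F-test, Benjamini-Hochberg adjustment, calls at an adjusted p under 0.05) over all 47 epididymal libraries, or 94 with mouse as a block between depots. CPM are TMM-scaled. The 12 libraries held between 1.32 and 16.2 M counts each, and counting error is larger for the shallow ones. Replicate libraries differed beyond sampling noise (lowest chi-square per degree of freedom 7.21) and were each counted. Gene positions are from GENCODE M21. The scripts were tested on simulated data. Genes were named by a rule: a core list, the 12 largest changes in each direction among calls of at least 5 CPM, the 3 largest calls of each list, 4 in each direction in the other comparisons and the 3 smallest p-values in each direction, with these exceptions named after their values were seen: Thrsp, Col15a1, Col5a3, Srebf1, the uncalled lipogenesis genes, and the chaperone list beyond Hspa5, Sdf2l1, Creld2 and Manf, and genes given without values; a few genes the rule names are not reported here. The members and lists were chosen with earlier results of these data known. Alternatives were DESeq2 1.42.0, its size factors, no filter and fits of the compared groups alone. Others were terms or blocks for replicate, run and series of mouse numbers, signal terms and leaving out each mouse. Limma voom 3.58.1 was used for the run block and as an alternative for depots. Animals are separate mice per the labels, and those sharing an enclosure are not known.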

Additional observations from a re-analysis of the deposited data

Results flagged for a closer look

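In the groups of 6, 11 of 182 gene and group pairs tested had a highest or lowest mouse far from the nearest other by Dixon's criterion in CPM. Chance gives about 1 in 20 where values spread normally and pairs are independent, and the count is near that. Neither condition was checked here, and genes of 1 mouse can vary together. The 6-week replicate 6 was that mouse for 7 genes and was the highest each time: Gpnmb at 1267 CPM (deposited counts scaled; 1270 to 3 digits, next 470.9), Trem2 at 229 CPM (next 86.3), Hspa5 at 496 CPM (next 400), Cd63 at 144 CPM (next 93.5), Klf4 at 130 CPM (next 109), Herpud1 at 76.6 CPM (next 62.8) and Hsph1 at 43.5 CPM (next 21.6). The same mouse had the lowest lipogenesis sum and the highest macrophage sum of its group. At 2 weeks, replicate 2, the library of 1.32 M counts, was highest for Saa3 at 8.33 CPM (next 3.57) and lowest for Gclm at 6.94 CPM (next 30.5). Replicate 6 was highest for Cd8a at 7.9 CPM (next 2.51), and replicate 1 for Hsd11b1 at 145 CPM (next 94.1).

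The change from 2 to 6 weeks differed between regression and lean mice, by the interaction test in edgeR, most for Elovl6 (log2 difference 3.76), Hephl1 (3.55), Acss2 (3.43) and Mogat2 (3.35) in the positive direction and for Thbs1 (-3.13), Thbs2 (-2.10), Dusp8 (-1.61) and Btc (-1.53) in the negative. Between depots, by the test of the depot difference in edgeR, it differed most for Slfn4 (4.60), Prg4 (3.36), F10 (3.13) and Fosb (3.12), more positive in epididymal fat, and for Dsp (-6.44), Acot11 (-2.85), Aspg (-2.55) and Cpt1b (-2.52), more negative there. Dsp lost its call without the mouse of the 6-week replicate 3 or of the 2-week replicate 5, and Aspg without that of the 6-week replicate 1 or 4 or of the 2-week replicate 5; both lost it in the compared groups alone and with limma voom. Dsp, a desmosome protein of epithelia, ranged from 1.22 to 67.6 CPM over the 2-week epididymal libraries.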

How the results depend on the processing

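Shares are percents of genes called. Between 6 and 2 weeks (4.79%, 686 genes), DESeq2 gave 5.32% (1085 genes), the 12 libraries alone 0.824%, replicates 1 to 3 alone 0.641%, replicates 4 to 6 alone 0 (2718 genes at an unadjusted p under 0.05), and runs of neighbouring mouse numbers as a random block 1.49%. The replicate number as a block, in the 12 libraries alone, gave 1.39% (182 genes). Leaving out 1 library gave 1.73% to 10.3%. All 73 called genes named in the text with their values kept their direction in every setting. Their calls were lost for 44 in the 12 libraries alone, 37 with the replicate block, 32 with the run block, 55 in replicates 1 to 3 alone, 73 in replicates 4 to 6 alone, 12 with the motile cilia term, 0 with DESeq2 and 0 to 31 without 1 library.

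Against lean change (0.796%), DESeq2 gave 2.22%, a term for the 2 number series 2% (286 genes), replicates 1 to 3 alone 0.19%, replicates 4 to 6 alone 0 (1573 genes at an unadjusted p under 0.05), the run block 0.0698% and leaving out 1 library 0.168% to 3.14%. For lean mice (0.154%), DESeq2 gave 0.338%, no filter 0.0625%, the 2 lean groups alone 0.0699%, the replicate block 0 (1212 genes at an unadjusted p under 0.05), replicates 1 to 3 alone 0.00705%, replicates 4 to 6 alone 0 (1358), the run block 0.014% and leaving out 1 library 0 to 0.251%. Between depots (1.2%), the compared groups alone gave 0.707% and leaving out 1 mouse 0.0611% to 2.66%. Of the 8 depot genes named, 5 lost their call with limma voom, 5 without the mouse of the 2-week replicate 5 and 3 in the compared groups alone. The causes were not tested.

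The difference in library totals on the log10 scale was 0.283 (exact permutation p = 0.0476). Without 1 library it was 3.52 to 5.69 M counts, at p-values of 0.0476, 0.039, 0.0433 and 0.00866 in the exact permutation test without the 6-week replicate 4, 5 or 6 or the 2-week replicate 1. Uncalled genes changed sign in 4 cases: within replicates 1 to 3 Pnpla2 was -0.11, Srebf1 -0.062 and Mki67 0.32, and with the motile cilia term, added after seeing the data, Spp1 was 0.25. Equal replicate numbers do not pair the mice: correlations of their deviations were 0.21, -0.04, 0.10, -0.42, 0.22 and 0.38 for numbers 1 to 6, and not every mouse correlated best with its own number.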
